A study of Mus musculus with 2 samples.

Results

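Rab GTPases are small proteins of the Ras superfamily that mark membranes. They switch between a GTP-bound form, which recruits effectors such as tethers and motors, and a GDP-bound form, which is taken off the membrane and recycled. Each Rab works at its own step of vesicle traffic, and in the cerebral cortex the family is best known for its part in synaptic vesicle release, in endosomal sorting of receptors and in transport through the Golgi apparatus. The family was defined here by symbol, as every gene with a protein-coding transcript that is named Rab, a number and at most 1 further letter. The rule found 59 genes among 22028 protein-coding genes and 55536 genes in all. They lie on 18 chromosomes, 4 of them on the X chromosome (Rab9, Rab9b, Rab33a and Rab39b). Each gene was given 1 role from textbook knowledge: 5 synaptic vesicle, 20 endosomal, 17 secretory (endoplasmic reticulum, Golgi and exocytosis) and 17 other genes. The roles, and the lists of partner genes used below, were set with earlier results of these data known.

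The values come from total RNA of the left cerebral cortex of 2 male mice, replicates 1 and 2, at 36 days of age. Both are of the strain B6CASTF1/J, the first-generation hybrid of the B6 and CAST strains, with no treatment or allele named. Each mouse gave 1 library from 300 ng of RNA. Both form a single group, so the data hold no contrast and no p-value is given. The labels number the mice as biological replicates but list the same donor identifier for both, so the spread between them may be partly technical. The libraries held 29915463 and 27988085 expected counts, of which 135825 and 123681 fell on the Rab genes. Levels are in TPM, a transcript's length-corrected share of all transcripts, which corrects for transcript length and so allows genes to be set against each other. All 3 markers each of excitatory neurons, inhibitory neurons, astrocytes, oligodendrocytes, microglia and endothelium were expressed, while the 3 cerebellar markers (Gabra6, Barhl1 and Cbln3) lay between 0.0 and 0.13 TPM. Of 3 choroid plexus markers, Ttr had 8.60 and 5.35 TPM, while Folr1 and Kcne2 were under 1 TPM. In bulk tissue of this kind, fewer cells of a type and less RNA per cell cannot be told apart.

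Rab proteins hold to membranes through lipid groups that are attached to cysteines at the end of the protein. The end of the coding sequence is therefore a feature that the members share and that the choice by name did not use. It is shown for the 4 Rab3 genes, all expressed and yet far apart in level, and for Rab7, Rab1a, Rab5a and Rab11a, which stand for 4 other kinds of traffic. Each line gives the last coding bases, with the stop codon, of the highest transcript that has a complete reading frame, from GENCODE M21 on mm10, and cysteine codons are in capitals.
Rab3a-201, chr8:70758044-70758088, plus strand: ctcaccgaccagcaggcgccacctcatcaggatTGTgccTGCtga
Rab3b-201, chr4:108940769-108940813, plus strand: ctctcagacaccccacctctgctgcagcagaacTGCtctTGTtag
Rab3c-201, chr13:110061815-110061859, minus strand: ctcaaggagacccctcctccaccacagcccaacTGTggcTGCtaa
Rab3d-201, chr9:21910484-21910528, minus strand: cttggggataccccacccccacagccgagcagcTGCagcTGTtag
Rab7-205, chr6:88000435-88000479, minus strand: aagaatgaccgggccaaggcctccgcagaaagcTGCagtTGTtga
Rab1a-201, chr11:20224801-20224845, plus strand: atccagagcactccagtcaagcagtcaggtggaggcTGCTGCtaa
Rab5a-201, chr17:53506385-53506429, plus strand: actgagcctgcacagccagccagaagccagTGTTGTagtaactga
Rab11a-208, chr9:64716849-64716893, minus strand: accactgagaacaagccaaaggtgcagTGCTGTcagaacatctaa
All 4 Rab3 genes and Rab7 end in cysteine codons in the last and the third-last place. Rab1a ends in an adjacent pair, and in Rab5a and Rab11a such a pair is followed by further codons. Over all 59 genes, 20 had the spaced form, 15 ended in the adjacent pair, 15 had the pair followed by 1 to 3 codons and 8 had a single cysteine codon with 3 codons after it (Rab8a, Rab8b, Rab13, Rab23, Rab28, Rab38, Rab40b and Rab40c). Rab18, in its transcript Rab18-201, had none of these endings. Rab18-205, also coding, held more counts (1682 and 1532, against 871 and 731 for Rab18-201), and its ending was not examined. Coding lengths ran between 157 and 973 codons, with a median of 215.

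Most of the family was expressed in this cortex. A threshold of 1 TPM was met in each mouse by 49 of the 59 Rab genes (83.1%), beside 58.6% of all protein-coding genes. A TPM of at least 10 was reached by 39 Rab genes, beside 36.3% of protein-coding genes, and a TPM of at least 100 by 8 of them, beside 3.91%. The median Rab gene had 18.6 TPM in replicate 1 and 18.5 TPM in replicate 2, whereas the median protein-coding gene had 3.49 TPM in replicate 1 and 3.82 TPM in replicate 2. On the log2(TPM + 1) scale the Rab median lay 2.07 ± 0.080 above that of all protein-coding genes (SD, n = 2). Levels were unevenly spread within the family: the 3 highest genes, Rab3a, Rab6b and Rab6a, held 30.4% and 30.0% of the summed Rab TPM in replicates 1 and 2, and the 10 highest held 60.7% and 59.8%. Of the 58 pairs of neighbours in the order of levels, 33 had ranges over the 2 mice that overlapped, and 25 did not. The ranges alone do not resolve the order of an overlapping pair, but it can still be the same within each mouse. Rab15 and Rab2a, for example, overlapped, with 124 against 115 TPM in replicate 1 and 114 against 109 TPM in replicate 2.

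**Figure D1:**
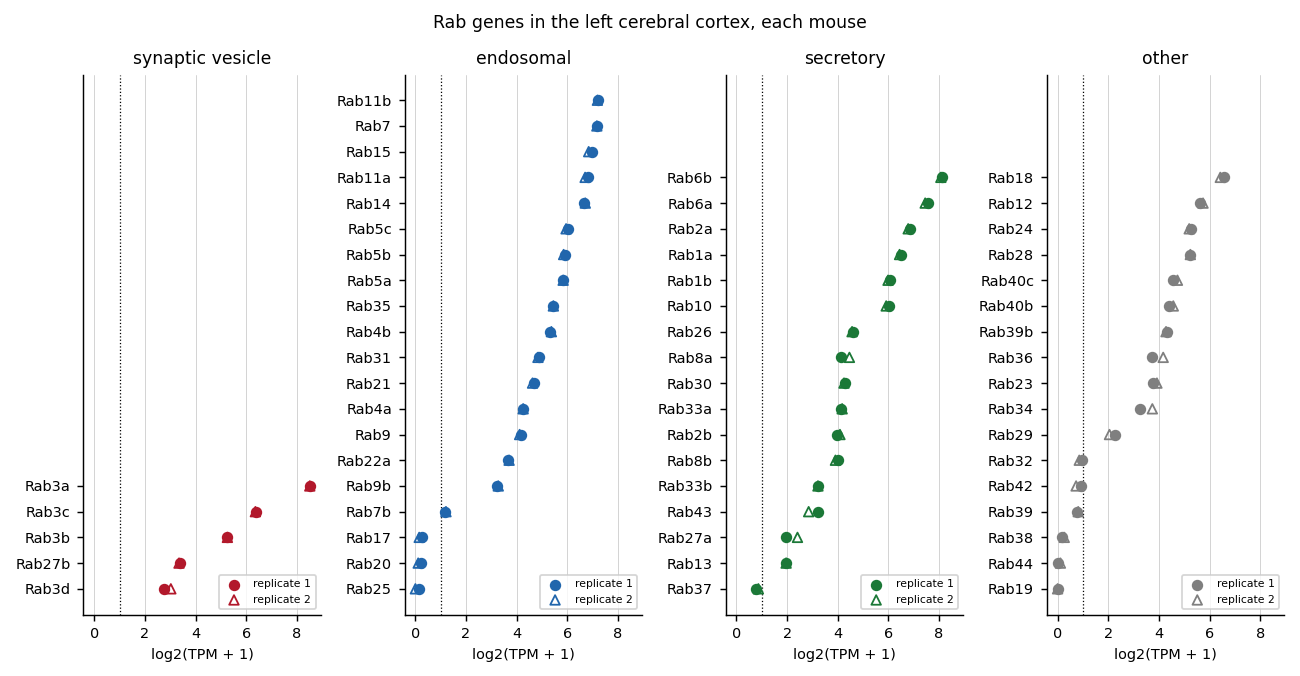
Level of each of the 59 Rab genes as log2(TPM + 1) on the horizontal axis, one panel per role, with filled circles for replicate 1 and open triangles for replicate 2. The dotted line marks a TPM of 1. The mice lie close together for most genes, and each role spans genes near 0 or a few TPM as well as genes well above 50 TPM.

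By role, the synaptic vesicle and endosomal genes had the higher median levels and the other genes the lowest. The median was 37.3 TPM in replicate 1 and 37.2 TPM in replicate 2 for synaptic vesicle genes, 33.5 and 34.0 TPM for endosomal genes, 16.7 and 18.0 TPM for secretory genes and 12.1 and 14.2 TPM for the other genes. All 5 synaptic vesicle genes were expressed, as were 17 of 20 endosomal, 16 of 17 secretory and 11 of 17 other genes. Over all protein-coding genes the share was 58.6%, and the 64.7% of the other genes lay near it. On the log2(TPM + 1) scale the synaptic vesicle median exceeded the endosomal one by 0.16 ± 0.013, the secretory one by 1.06 ± 0.075 and that of the other genes by 1.44 ± 0.15 (SD, n = 2). The endosomal median lay 0.90 ± 0.063 above the secretory one and 1.28 ± 0.14 above that of the other genes. Secretory genes lay 0.38 ± 0.074 above the other genes. All 6 differences had the same sign in both mice and exceeded the SD between them. With unexpressed genes left out, however, the synaptic vesicle median was below the endosomal one, with a difference of -0.19, and the secretory median below that of the other genes, with -0.21. The synaptic vesicle median is the level of Rab3b alone, the middle one of 5 genes, and genes of different roles overlapped widely. Rab26, also a Rab of synaptic vesicles, was counted as secretory, and counting it as synaptic vesicle was not tried. At 23.1 and 22.7 TPM it lay below Rab3b and below the endosomal median. With Rab26 included, the synaptic vesicle median would lie midway between Rab3b and Rab26, which is below the endosomal median in both mice. By summed TPM the order was another: endosomal genes held 36.2 ± 0.0062% of all Rab TPM, secretory genes 33.4 ± 0.47%, synaptic vesicle genes 18.5 ± 0.11% and other genes 11.9 ± 0.37%. The first 2 changed places over coding transcripts alone, at 34.4% for endosomal and 34.7% for secretory genes. They also did so with recycling endosome genes counted as secretory, at 23.2% and 46.5%. The genes moved were Rab4a, Rab4b, Rab11a, Rab11b, Rab25 and Rab35, while Rab15 stayed endosomal.

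**Figure D2:**
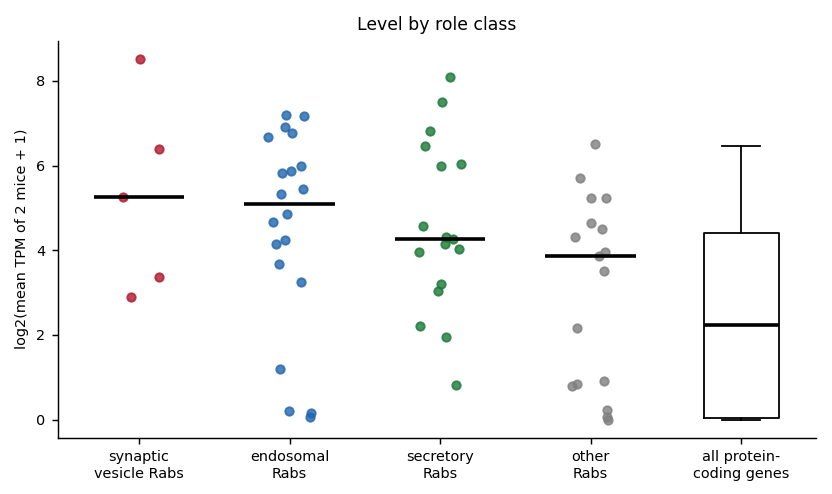
Level of the Rab genes of each role (points, mean of 2 mice, with a black bar at the median) beside all protein-coding genes (box from the lower to the upper quartile with its median, whiskers at the outer 5% on each side), as log2(mean TPM + 1). The 4 medians of the roles lie above that of all protein-coding genes, and the points of different roles overlap.

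Among the synaptic vesicle genes, Rab3a was the highest, as it was in the whole family. Rab3a, the main Rab of synaptic vesicles (chr8:70754679-70758677, plus strand), had 369 TPM in replicate 1 and 364 TPM in replicate 2 (366 ± 3.75, SD, n = 2), from 9268 and 8534 counts. Its level stood at the 99.5 percentile of protein-coding genes in both mice. Rab3c, a paralog also found on synaptic vesicles, had 83.8 and 81.3 TPM (82.5 ± 1.74) from 11820 and 11194 counts. Rab3c thus had more counts than Rab3a at a lower TPM: its leading transcript, Rab3c-201, is 8444 nucleotides long, that of Rab3a, Rab3a-201, 1363. Rab3b, which acts in regulated secretion and at some synapses, had 37.3 and 37.2 TPM (37.3 ± 0.064) from 983 and 899 counts. Rab3d, known from the secretory granules of exocrine cells, had 5.72 and 7.13 TPM (6.43 ± 1.00) from 263 and 277 counts. Rab27b, which helps secretory vesicles dock, had 9.52 and 9.17 TPM (9.35 ± 0.25) from 875 and 823 counts. The values of these 5 genes did not overlap between the mice, in the order Rab3a, Rab3c, Rab3b, Rab27b and Rab3d.

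The differences inside the Rab3 subfamily were the widest of any subfamily with all members expressed. In log2(TPM + 1), Rab3a exceeded Rab3c by 2.14 ± 0.015, Rab3b by 3.26 ± 0.012 and Rab3d by 5.64 ± 0.21 (SD, n = 2). Rab3a exceeded these 3 genes in the read-based table as well, which quantifies transcripts directly from the reads, by 2.23, 3.38 and 5.70. In the Rab27 pair, Rab27a, the melanosome and granule Rab counted here as secretory, had 2.90 and 4.31 TPM (3.61 ± 1.00) from 141 and 160 counts. Rab27a lay 1.18 ± 0.35 below Rab27b, as a difference of -1.43 in replicate 1 and -0.94 in replicate 2.

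Rab11b and Rab7 led the endosomal genes. Rab11b, a recycling endosome Rab (chr17:33742484-33760530, minus strand), had 147 TPM in replicate 1 and 145 TPM in replicate 2 (146 ± 1.78), from 3886 and 3445 counts. Rab7, which directs late endosomes to lysosomes, had 143 TPM in each mouse (143 ± 0.58) from 5093 and 4880 counts. Rab15, an early and recycling endosome Rab known from neural tissue, had 124 and 114 TPM (119 ± 7.26) from 6875 and 5894 counts. On these values the 3 genes kept their order in both mice, with no overlap. In the read-based table Rab7 stood above Rab11b instead, at 395 and 384 TPM against 319 and 283 TPM. Transcripts annotated as protein-coding held 59.1% and 56.9% of the TPM of Rab11b, against 100% for Rab7 in both mice. Rab11a, the paralog of Rab11b, had 112 and 103 TPM (107 ± 5.94) from 2714 and 2344 counts, and its values overlapped those of Rab14, which carries cargo between the trans-Golgi and endosomes, at 99.5 and 104 TPM. Rab25, the epithelial member of the Rab11 subfamily, had 2 counts in replicate 1 and 0 in replicate 2.

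The 3 Rab5 genes, which drive the fusion of early endosomes, had closely similar levels. Rab5c had 63.6 and 60.9 TPM (62.2 ± 1.90) from 2258 and 2027 counts. Rab5b had 58.6 and 56.9 TPM (57.8 ± 1.24) from 3484 and 3138 counts, and Rab5a had 56.0 and 56.1 TPM (56.1 ± 0.085) from 2515 and 2359 counts. On the log2(TPM + 1) scale Rab5a lay 0.042 ± 0.033 below Rab5b, as a difference of -0.065 in replicate 1 and -0.019 in replicate 2, and Rab5a minus Rab5c was -0.15 ± 0.046. This near equality did not hold in the read-based table, where Rab5a minus Rab5c was -0.88 and Rab5b minus Rab5c -0.90.

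Further expressed endosomal genes ran between 1.27 TPM for Rab7b and 42.7 TPM for Rab35. Rab35, a fast-recycling Rab, had 42.4 and 42.7 TPM, and Rab4b, another one, 38.5 and 40.4 TPM, above its paralog Rab4a at 18.0 and 18.1 TPM. Rab31 had 28.4 and 27.7 TPM, above its paralog Rab22a at 11.69 and 12.01 TPM. Rab31 and Rab22a act between the trans-Golgi and early endosomes. Rab21, which moves integrins, had 24.7 and 23.7 TPM. Rab9, which returns receptors from late endosomes to the Golgi, had 16.9 and 16.4 TPM, and its paralog Rab9b 8.23 and 8.67 TPM. Rab7b, also of late endosomes, was the lowest of the family members that met the threshold, at 1.27 and 1.31 TPM from 50 and 49 counts. Rab17, Rab20 and Rab25 were not expressed by the threshold.

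Among the secretory genes the Rab6 pair stood highest. Rab6b, a Golgi Rab known as the neuronal form of Rab6 (chr9:103111787-103185276, plus strand), had 278 TPM in replicate 1 and 268 TPM in replicate 2 (273 ± 7.13), from 26580 and 24014 counts, the most of any Rab gene. Rab6a, which acts in Golgi traffic in all tissues (chr7:100607410-100641268, plus strand), had 187 and 174 TPM (181 ± 9.06) from 11102 and 9566 counts. Rab2a, which acts between the endoplasmic reticulum and the Golgi, had 115 and 109 TPM (112 ± 4.07) from 4595 and 4076 counts. No values overlapped among these 3 genes. Rab6a minus Rab6b was -0.59 ± 0.034 in log2(TPM + 1), and in the read-based table it was 0.045 in replicate 1 and -0.041 in replicate 2, so the order of the pair held in the alignment-based table only.

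One coding exon of Rab6a comes in 2 forms. The 2 main Rab6a transcripts, Rab6a-201 and Rab6a-203, differ in a mutually exclusive exon, which yields the forms known as Rab6A and Rab6A'. Rab6b differs from Rab6a outside this exon too: their coding sequences were 78.6% identical, with a longest identical run of 14 bases. The exon is shown for both Rab6a transcripts and for the matching exon of Rab6b, 106 bases each, on mm10. Its place is coding bases 184 to 289 of Rab6a-201, and capitals mark bases that differ from that transcript.
Rab6a-201, chr7:100629838-100629943, plus strand: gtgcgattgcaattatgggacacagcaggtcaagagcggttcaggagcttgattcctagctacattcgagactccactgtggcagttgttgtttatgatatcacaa
Rab6a-203, chr7:100629666-100629771, plus strand: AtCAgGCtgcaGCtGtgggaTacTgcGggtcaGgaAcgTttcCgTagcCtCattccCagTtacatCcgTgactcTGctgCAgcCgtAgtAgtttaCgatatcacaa
Rab6b-201, chr9:103161064-103161169, plus strand: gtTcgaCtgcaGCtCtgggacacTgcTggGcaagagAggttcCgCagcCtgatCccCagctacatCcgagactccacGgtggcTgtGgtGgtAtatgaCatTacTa
Rab6a-203 differed from Rab6a-201 at 30 bases in 24 codons, of which 3 (codons 62, 87 and 88) change the residue. Rab6b-201 differed at 23 bases in 21 codons, and 0 of them change the residue. Rab6a-201 held 87.6% of the TPM of Rab6a in replicate 1 and 89.0% in replicate 2 (88.3 ± 0.99%), and Rab6a-203 held 11.2% and 7.95%. The read-based table gave Rab6a-201 58.4% and 59.9%, and Rab6a-203 4.04% and 2.86%. The retained-intron transcript Rab6a-204 held 1.24% and 3.06% in the alignment-based table, against 36.7% and 36.4% in the read-based one. Rab6b had 1 dominant transcript, Rab6b-201, at 99.0 ± 0.30%.

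The remaining secretory genes were lower. The Rab1 pair, which serves transport from the endoplasmic reticulum to the Golgi, had 89.2 and 85.9 TPM for Rab1a and 65.9 and 62.3 TPM for Rab1b, a difference of 0.44 ± 0.018 in log2(TPM + 1). Rab10, which carries vesicles to the plasma membrane and into axons, had 64.8 and 59.3 TPM. Rab26, a secretory granule and synaptic vesicle Rab, had 23.1 and 22.7 TPM, and the Golgi gene Rab30 had 18.6 and 18.0 TPM. The Golgi genes Rab33a and Rab33b had 16.6 and 17.1 TPM and 8.25 and 8.30 TPM. Rab2b had 14.7 and 16.0 TPM, which placed Rab2a above it by 2.79 ± 0.13 in log2(TPM + 1). Rab43, which acts at the Golgi, had 8.28 and 6.21 TPM (7.25 ± 1.46) from 458 and 388 counts, and Rab13, a tight junction Rab, had 2.83 and 2.89 TPM. Rab37, a granule Rab, was the 1 secretory gene not expressed. Of these genes, Rab13 and Rab27a were the only ones expressed under 5 TPM.

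The Rab8 pair, whose proteins carry vesicles to the plasma membrane and to cilia, changed order with the transcripts counted. Rab8a had 16.66 TPM in replicate 1 and 21.01 TPM in replicate 2 (18.8 ± 3.08), from 720 and 664 counts, and Rab8b had 15.3 and 14.0 TPM (14.7 ± 0.91) from 1396 and 1194 counts. Rab8a thus had the lower count but the higher TPM in replicate 2 relative to replicate 1. Its leading transcript, Rab8a-202, is a retained-intron model of 542 nucleotides, which held 56.3% and 68.2% of the gene's TPM on 81.7 and 117 counts. The coding transcript Rab8a-201, of 4550 nucleotides, held 638 and 547 counts. In the read-based table Rab8a-202 held 43.3% and 50.1% and Rab8a-201 56.7% and 49.9%. Rab8a minus Rab8b was 0.33 ± 0.31 in log2(TPM + 1) over all transcripts and -0.97 over coding transcripts alone.

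Of the genes with other roles, Rab18 was the highest. Rab18, a Rab of lipid droplets and the endoplasmic reticulum, had 93.7 TPM in replicate 1 and 85.0 TPM in replicate 2 (89.3 ± 6.14), from 3031 and 2660 counts. Rab12, which sends the transferrin receptor to lysosomes, had 49.0 and 52.6 TPM (50.8 ± 2.55) from 1761 and 1699 counts. Rab24, linked to autophagy, had 38.0 and 35.7 TPM (36.8 ± 1.59) from 831 and 731 counts, and overlapped Rab28, a ciliary Rab, at 36.5 and 36.9 TPM (36.7 ± 0.25) from 1080 and 1018 counts. Rab18 and Rab12 each lay apart from the genes below them in both mice. Rab40c, which like Rab40b carries a SOCS box and serves in ubiquitin ligases, had 22.4 and 25.6 TPM (23.99 ± 2.30) from 935 and 879 counts, and Rab40b had 20.4 and 22.7 TPM. Rab39b, mutated in an X-linked form of human intellectual disability, had 19.2 and 18.5 TPM. Rab23, an inhibitor of Hedgehog signalling, had 12.7 and 14.2 TPM, and Rab29, a partner of the kinase LRRK2, 3.84 and 3.14 TPM (3.49 ± 0.49) from 84 and 56 counts. Rab36 had 12.1 and 17.0 TPM (14.6 ± 3.45) and Rab34, which acts in cilium formation, 8.48 and 12.4 TPM (10.4 ± 2.76). Rab36 and Rab34 were both lower in replicate 1.

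The 10 Rab genes below the threshold fall into a group with 8 or more counts and a group at or near 0. Rab39, the paralog of Rab39b, had 40 counts in each mouse (0.71 and 0.76 TPM). Rab37 had 28 counts in replicate 1 and 33 in replicate 2, and Rab32, a Rab of melanosomes and mitochondria, had 26 in each. Rab42 had 12 and 8 counts and Rab38, the melanosome paralog of Rab32, had 4 in each. The epithelial Rab17 had 4 and 1 counts and Rab20 had 4 and 2. Rab25 had 2 and 0 counts, Rab44, an unusually large Rab known from immune cells, had 0 and 2, and Rab19 had 0 in both mice. These last 6 genes, Rab38 included, had 4 counts or fewer in a mouse, near the 3 counts that a count of 0 allows, so their levels cannot be ranked at this depth.

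Within subfamilies, related genes mostly differed by more than the mice did. Genes given no subfamily here, such as Rab7, Rab10 and Rab18, enter no pair. The others form 24 pairs in 15 subfamilies, of which 20 pairs had both genes expressed. All 20 had the same sign in both mice, 18 had the same sign of the mean in the alignment-based and the read-based table, 17 had the same sign in both mice in both tables, and 10 differed by more than 1 in log2(TPM + 1). The second pair with a sign that depended on the table, besides Rab6a and Rab6b, was Rab5a and Rab5b. The coding sequences of the 20 pairs were between 65.6% and 78.6% identical, with longest identical runs between 11 and 38 bases. The longest run, 38 bases, was in Rab1a and Rab1b. Other differences over 1 in size were Rab4a minus Rab4b at -1.09 ± 0.040 and Rab22a minus Rab31 at -1.18 ± 0.052. Rab9 minus Rab9b was 0.90 ± 0.080, Rab33a minus Rab33b 0.94 ± 0.018 and Rab40b minus Rab40c -0.15 ± 0.025, for which the read-based table gave 0.0018 in replicate 1 and -0.030 in replicate 2.

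**Figure D3:**
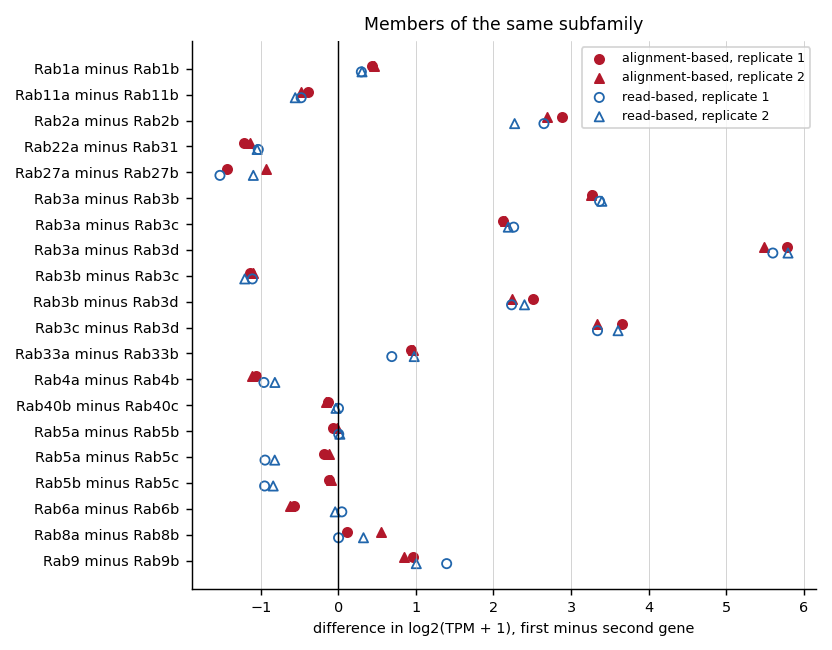
Difference in log2(TPM + 1) between 2 expressed Rab genes of the same subfamily, first named minus second, for the 20 pairs. Filled red symbols are the alignment-based table and open blue symbols the read-based table, with circles for replicate 1 and triangles for replicate 2. Rab3a stands above its paralogs by 2.14 to 5.64 on average, and Rab6a minus Rab6b moves to about 0 in the read-based table.

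The 2 kinds of quantification disagreed most for a few members. After each table was rescaled to nuclear protein-coding genes, the alignment-based value was lower than the read-based one by 0.74 in log2(TPM + 1) for Rab7, by 0.60 for Rab18, by 0.60 for Rab5c, by 0.49 for Rab34 and by 0.42 for Rab6a. It was higher by 0.42 for Rab8a, by 0.35 for Rab43, by 0.26 for Rab40c, by 0.24 for Rab28 and by 0.24 for Rab8b. Rab7 had 319 and 313 rescaled TPM in the alignment-based table and 543 and 514 in the read-based one, and Rab5c 141 and 134 against 221 and 196. Rab8a had 37.1 and 46.1 rescaled TPM in the alignment-based table and 29.3 and 32.3 in the read-based one. The sign was the same in both mice for all 10 genes, but the difference for Rab43 was 0.61 in replicate 1 and only 0.085 in replicate 2. Rab5c-203, a coding transcript of 441 nucleotides, held 0.78% and 0.40% of the TPM of Rab5c in the alignment-based table and 46.5% and 42.0% in the read-based one. The median difference over the expressed Rab genes was 0.051, beside 0.072 over all expressed protein-coding genes.

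The leading transcript mostly agreed between the mice and less often between the tables. Of 43 expressed Rab genes with several annotated transcripts, 42 had the same leading transcript in both mice, beside 87.7% of protein-coding genes. The exception was Rab3d, led by the coding Rab3d-201 in replicate 1 (58.9%) and by the retained-intron Rab3d-205 in replicate 2 (42.3%). The leading transcript was the same in both tables for 31 of the 43 genes, beside 76.1% of protein-coding genes. It held at least 80% of the gene's TPM in 18 of the 43 (41.9%), beside 27.0% of protein-coding genes. Genes led by 1 transcript included Rab5a, Rab5b, Rab5c and Rab6b. Rab3a-201 held 79.8% and 78.1% of Rab3a, while the read-based table gave it 11.6% and 31.2% and spread the gene over Rab3a-202 and Rab3a-203 as well. Rab1a was shared between Rab1a-201 (74.3% and 75.4%) and Rab1a-202 (23.6% and 19.6%), and Rab28 between Rab28-201 (56.8% and 48.1%) and Rab28-203 (27.6% and 28.8%).

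Transcripts annotated as protein-coding held most of the Rab TPM. In the alignment-based table their median share was 94.99% over the expressed Rab genes, beside 88.8% over protein-coding genes. It was under 50% in Rab8a (37.8%) and Rab23 (41.4%). Rab23 had 45.9% and 49.6% on retained-intron transcripts. The read-based share was 53.3% in Rab8a, 29.5% in Rab23 and 49.2% in Rab11b. It was also lower in Rab18 (61.2% against 98.0%), Rab6a (63.4% against 97.8%) and Rab11a (55.2% against 91.6%), but higher in Rab3d (91.6% against 58.3%). In the alignment-based table a coding transcript led in 47 of 49 genes, beside 92.7% of expressed protein-coding genes. The exceptions were Rab8a and Rab11b. In the read-based table the coding Rab8a-201 led Rab8a in replicate 1, at 56.7%. In replicate 2 it held 49.9%, beside 50.1% for the retained-intron Rab8a-202. The leading transcript of Rab11b, Rab11b-204, of the nonsense-mediated decay class, held 40.9% and 43.1%. The read-based table gave Rab11b-204 0.0% and placed 50.8% of Rab11b on the non-coding Rab11b-205, on average. Rab11a minus Rab11b was -0.44 ± 0.062 over all transcripts and 0.21 over coding transcripts alone. Rab11a was itself split evenly between Rab11a-208 (45.6% in each mouse) and Rab11a-206 (43.9% and 44.1%), a 462-nucleotide model that held 350 and 304 counts, against 2243 and 1936 for Rab11a-208. The read-based table did not show this even split: it gave Rab11a-208 29.8% and 33.5%, Rab11a-206 7.68% and 0.0%, and the non-coding Rab11a-202 27.6% and 28.4%. Rab35 had 28.4% and 33.8% on transcripts of the nonsense-mediated decay class. The order of the Rab11 pair thus depended on which transcripts were counted.

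**Figure D4:**
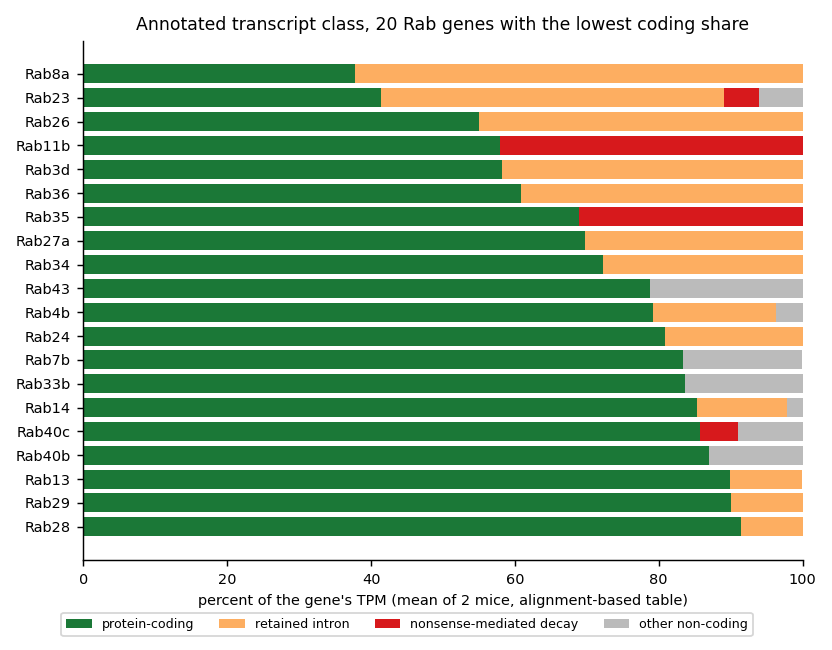
Percent of the TPM of each gene (mean of 2 mice, alignment-based table) on transcripts of each annotated class, for the 20 expressed Rab genes with several transcripts and the lowest coding share. Rab8a and Rab23 are below 50% coding, and the nonsense-mediated decay class is widest in Rab11b and Rab35.

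Between the mice the Rab genes differed little. A ratio of replicate 1 over replicate 2 was computed from scaled counts for the 46 Rab genes that averaged 100 counts or more. Of these, 0 lay beyond 0.5 in log2, beside 2.26% of 11728 protein-coding genes, and 0 lay under -0.5, beside 1.19%. The number beyond 0.5 was 1 with library totals in place of the scaling, namely Rab34 at -0.55. The median absolute ratio was 0.10, the same as over all protein-coding genes. The lowest was Rab34 at -0.49, with 198 and 271 counts and an exact binomial 95% interval, which covers counting error only, of -0.76 to -0.22. Rab36 followed at -0.36 (-0.51 to -0.20), with 622 and 777 counts. The highest was Rab43 at 0.20, but the read-based table gave it -0.069. Rab34 and Rab36 kept their sign there, at -0.43 and -0.23. The ratio was above 0 for 36 of the 46 genes, beside 57% of protein-coding genes, with a median of 0.070 beside 0.025. This count rested on the scaling: with library totals it was 23 of 46, beside 40.3% of protein-coding genes, with a median of 0.0097 beside -0.035. With 1 library a mouse these ratios have no replicate check. Below 100 counts, 6 genes lay beyond 0.5. Rab29 had 0.55 (0.045 to 1.06) and Rab42 0.52 (-0.86 to 2.05). Rab17, Rab20, Rab25 and Rab44 had at most 4 counts in a mouse, and their intervals included 0.

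**Figure D5:**
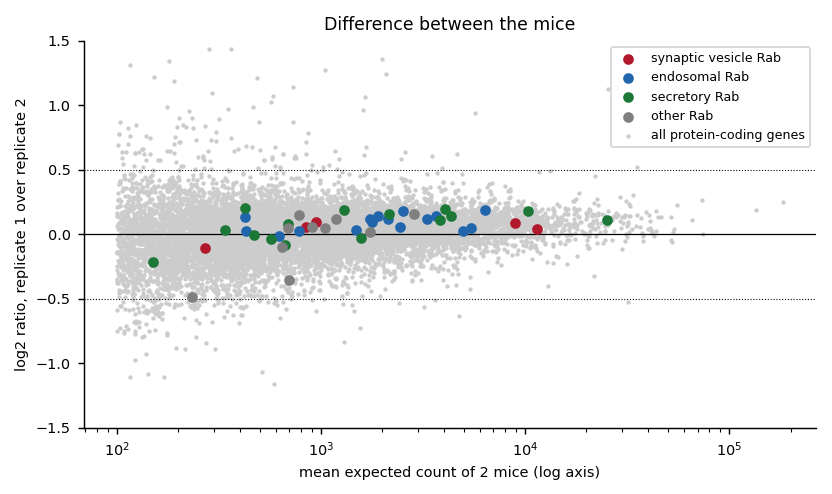
Log2 ratio of replicate 1 over replicate 2 from scaled counts against the mean expected count of the 2 mice (log axis), for 46 Rab genes coloured by role and all protein-coding genes at 100 or more mean counts in grey. Dotted lines mark 0.5 in either direction. All Rab genes lie between them, with Rab34 the lowest at -0.49, and 8 protein-coding genes lie beyond the axis.

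Neighbouring and copied genes limit some of these counts. Exons of 20 Rab genes overlap those of another annotated gene, and the sources used here do not say whether counting used strand. The antisense gene Rab10os had 745 and 876 counts beside 4355 and 3719 for Rab10, Prelid1 had 1838 and 1576 beside 831 and 731 for Rab24, and Tox4 had 1841 and 1825 beside 658 and 682 for Rab2b. Traf7 shares the strand of Rab26 and had 908 and 1007 counts beside 567 and 569, and Mrpl48, opposite Rab6a, had 1004 and 925. Counts were whole numbers for 51 of the Rab genes. They were fractional, which happens where reads are divided among genes, for Rab7, Rab18, Rab11b, Rab27b, Rab26, Rab5b, Rab8b and Rab43. The pseudogenes Rab7-ps1 and Rab11b-ps2 held 5.32 and 12.7 counts and 30.7 and 17.1 counts, and Rab5a-ps and Rab9b-ps1 held 0.

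Most genes whose proteins serve the Rab cycle were expressed as well. In the group for prenylation and recycling all 8 genes were expressed, beside 58.6% of all protein-coding genes. Gdi2, which takes GDP-bound Rabs off membranes, had 130 TPM in replicate 1 and 122 TPM in replicate 2. Rabac1, a Rab acceptor of the Golgi, had 122 TPM in each mouse. The subunits of the enzyme that attaches the lipid groups followed, Rabggtb at 29.8 and 27.0 TPM and Rabggta at 19.5 and 22.5 TPM. The escort protein Chm had 17.6 and 18.3 TPM, its paralog Chml 4.58 and 4.57 TPM, and Rabif, which binds nucleotide-free Rabs, 12.2 and 11.5 TPM. Chml was thus the lowest of the 8 in both mice.

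Of 32 exchange factors, which load Rabs with GTP, 29 were expressed, beside 58.6% of all protein-coding genes. The highest were Madd, the Rab3 and Rab27 exchange factor, at 105 and 102 TPM, Dennd5a at 103 and 100.7 TPM and Sbf1 at 93.3 and 106 TPM. Gapvd1 and Rin1, both exchange factors of Rab5, had 44.4 and 48.1 TPM and 39.5 and 38.9 TPM. Dennd1c, Dennd2c and Dennd2d were below 1 TPM in at least 1 mouse. Dennd1c, at 0.77 and 1.09 TPM, had 7.14 and 13.2 TPM in the read-based table, where 30 of the 32 passed. Of 34 GTPase-activating proteins, which end the active state, 33 were expressed, beside the same 58.6%, Tbc1d10c being the exception. Rabgap1l had 90.1 and 90.4 TPM, Sgsm1 76.9 and 74.7 TPM, Tbc1d9b 50.7 and 52.8 TPM, Evi5l 47.9 and 51.5 TPM and Tbc1d9 43.1 and 43.4 TPM.

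Of 41 effectors, 34 were expressed, beside 58.6% of all protein-coding genes. Rims1, the active-zone scaffold that binds Rab3, had 191 TPM in replicate 1 and 179 TPM in replicate 2. Osbpl1a, a sterol sensor that binds Rab7, had 157 and 140 TPM, and Rph3a, rabphilin, which binds Rab3 and Rab27, had 152 and 134 TPM. Myo5a, a motor of vesicles, had 136 and 134 TPM and Rab11fip4, a Rab11 partner, 108 and 109 TPM. The highest effectors therefore included partners of Rab3, Rab7 and Rab11. The 7 effectors not expressed were Sytl1, Sytl3, Sytl4, Mlph, Unc13d, Rilp and Micall2. Sytl2 and Sytl5, of the same synaptotagmin-like family as Sytl1, were expressed, at 39.7 and 43.7 TPM and at 2.93 and 2.27 TPM. Of the 41 effectors, 38 passed in the read-based table, with Unc13d at 2.68 and 3.79 TPM and Sytl4 at 1.02 and 1.85 TPM. The median of each of the 4 groups lay between 16.3 and 26.7 TPM in the 2 mice, beside 3.49 and 3.82 TPM for all protein-coding genes.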

How the data were processed

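Total RNA-seq libraries of the left cerebral cortex of 2 mice were used. The deposited alignment-based tables hold unnormalized expected counts of genes and transcripts, TPM, and each transcript's percent of its gene's TPM, per the file headers. The deposited read-based tables hold estimated counts and TPM per transcript. Genome mm10 and annotation GENCODE M21 are named in the deposited listing; aligner and quantifier: not given in the sources used here. TPM is a share of all RNA, and short transcripts weigh heavily in it.

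Members were taken by symbol. Members, roles and gene lists were chosen with earlier results of these data known. Deposited TPM gave levels (expressed: at least 1 in both mice; log scale with a pseudocount of 1), as mean and SD of 2 mice. Expected counts, rounded, were scaled with edgeR 4.0.16 (TMM, filterByExpr, prior count 0.5) in R 4.3.3, and DESeq2 1.42.0 size factors were an alternative. Steps were tested on simulated data. Total counts were 29915463 and 27988085. Sequences came from GENCODE M21 transcripts and coding annotation on mm10, in place of the protein table planned. Full values are given for Rab3, Rab5, Rab6, Rab11 and Rab27 members, the 3 highest of each role, members with a ratio beyond 0.5 or under 1 TPM (by count) and the 5 largest differences between tables in each direction; for partners, prenylation and recycling genes and the 5 highest of each other list. The text leaves out 1 partner gene, which still enters the group summaries. Other tables, thresholds, pseudocounts, scalings, filters, role assignments and single mice were tried, and coding transcripts only was added after seeing the data. The rest used Python 3.11.15, Biopython 1.88, matplotlib 3.10.9, scipy 1.17.1, pandas 2.3.3 and numpy 2.4.6.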

Additional observations from a re-analysis of the deposited data

How the results depend on the processing

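No paired analysis was possible because both mice form 1 group. The number of expressed Rab genes stayed between 45 and 55 over other thresholds, tables and scalings, and was 49 in each mouse alone. With only expressed members (1 TPM or more in each mouse), synaptic vesicle minus endosomal reversed to -0.19 and secretory minus other to -0.21. The other class differences were then 0.97 (synaptic vesicle minus secretory), 0.77 (synaptic vesicle minus other), 1.16 (endosomal minus secretory) and 0.95 (endosomal minus other), with class medians of 5.44 (endosomal), 4.29 (secretory) and 4.49 (other).

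In the read-based table the medians of synaptic vesicle, endosomal, secretory and other genes were 5.73, 5.71, 4.86 and 4.65. The differences were 0.019 (synaptic vesicle minus endosomal), 0.87 (synaptic vesicle minus secretory), 1.08 (synaptic vesicle minus other), 1.06 (endosomal minus other) and 0.21 (secretory minus other), and the shares of Rab TPM 15.6% (synaptic vesicle), 40.2% (endosomal) and 32.0% (secretory). Over coding transcripts alone, an alternative chosen after seeing the data, the medians in the same order were 5.25, 4.89, 4.02 and 3.07. The differences were 0.36 (synaptic vesicle minus endosomal), 1.23 (synaptic vesicle minus secretory), 2.18 (synaptic vesicle minus other), 1.82 (endosomal minus other) and 0.95 (secretory minus other), and the shares 19.6%, 34.4%, 34.7% and 11.2%, with secretory above endosomal. Rescaling to nuclear protein-coding genes gave medians of 6.38, 6.22, 5.29 and 4.91, and a pseudocount of 0.1 gave 5.22 (synaptic vesicle) and 5.06 (endosomal).

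With Rab27b counted as secretory, the synaptic vesicle median was 5.82, its differences to endosomal, secretory and other genes 0.72, 1.65 and 2.00, and its share 18.1%. With the recycling endosome genes Rab4a, Rab4b, Rab11a, Rab11b, Rab25 and Rab35 counted as secretory, the endosomal and secretory medians were 4.76 and 4.38. Their shares were 23.2% and 46.5%, again with secretory above. The differences were then 0.50 (synaptic vesicle minus endosomal), 0.88 (synaptic vesicle minus secretory), 0.38 (endosomal minus secretory), 0.94 (endosomal minus other) and 0.56 (secretory minus other).

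Of the 20 pairs, 4 reversed under 1 alternative: Rab6a minus Rab6b to 0.0020 and Rab5a minus Rab5b to 0.012 in the read-based table, and Rab11a minus Rab11b to 0.21 and Rab8a minus Rab8b to -0.97 over coding transcripts alone. The cause was not tested. The number of Rab genes beyond 0.5 between the mice was 1 with library totals, 1 with a minimum of 20 mean counts and 6 with no count filter, and 0 with DESeq2 size factors, with a minimum of 500, in the read-based table and beyond 1. With 2 mice, the SD has 1 degree of freedom, and members of a few counts cannot be ranked.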
